A study of Homo sapiens with 8 samples.

Results

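Fibronectin and the integrin subunits that bind it or share its partners were followed through 8 RNA sequencing libraries of bladder cancer xenografts. The group holds 9 genes, FN1 and the integrin genes ITGA5, ITGAV, ITGA3, ITGA6, ITGB3, ITGB4, ITGB5 and ITGB6. They were found by symbol among the 58302 genes of the deposited count table, and all 9 passed the filter on low counts that left 18973 genes for testing. The 9 genes were chosen by name, with earlier results of these same libraries known, and no record says which measured values weighed in that choice. Their differences between the groups are therefore given as a description. The p-values of these differences come from the fit over all genes and are only counted beside the share of all genes. The tumours were grown as xenografts from T24, an established line of human bladder carcinoma. They came either from control cells or from T24 cells with enforced expression of DDR1, a receptor tyrosine kinase activated by collagen, with 4 libraries of each kind. The labels give no vector, promoter, clone, host strain, host sex or time of growth, and do not say that each library is a separate animal, so the spread between libraries may be technical in part.

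Fibronectin is a large matrix glycoprotein that cells secrete as a dimer and assemble into fibrils. Integrins are receptors built from 1 alpha and 1 beta subunit that tie such matrix to the actin or keratin skeleton. The alpha 5 subunit pairs with beta 1 to form the main receptor for fibril assembly, whereas alpha V pairs with beta 1, beta 3, beta 5, beta 6 or beta 8. Integrins of both kinds bind the short motif arginine-glycine-aspartate, RGD, in fibronectin. The alpha 3 and alpha 6 subunits mainly bind laminins, and alpha 6 with beta 4 anchors basal epithelial cells in hemidesmosomes.

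The receptor-binding motif is shown first because it links the ligand to the receptors described below. Of 13 protein-coding FN1 transcripts in GENCODE release 29, the one with the longest reading frame encodes 2477 residues and holds the RGD motif 1 time, at residues 1615 to 1617. The 3 RGD codons are in capitals, with 24 coding bases on either side.
FN1, RGD codons: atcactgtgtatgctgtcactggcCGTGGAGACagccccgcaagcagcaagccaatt

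The bases before the start of FN1 and of ITGB6 are shown because these were the 2 members whose levels ranged most widely over the libraries. Both windows hold the 250 bases upstream of the RefSeq gene start in GRCh38.p14, on the minus strand, at chr2:215436069-215436318 for FN1 and chr2:160200273-160200522 for ITGB6. Capitals mark every match, on either strand, to TATAAA, the cyclic AMP response element TGACGTCA, the AP-1 motif TGANTCA, the GC box GGGCGG and the TEAD motif GGAATG.
FN1: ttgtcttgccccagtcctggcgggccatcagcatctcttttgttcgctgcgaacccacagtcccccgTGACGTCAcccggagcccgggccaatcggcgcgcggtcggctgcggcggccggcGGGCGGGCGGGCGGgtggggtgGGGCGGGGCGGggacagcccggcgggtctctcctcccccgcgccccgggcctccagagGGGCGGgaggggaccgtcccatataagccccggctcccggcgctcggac
ITGB6: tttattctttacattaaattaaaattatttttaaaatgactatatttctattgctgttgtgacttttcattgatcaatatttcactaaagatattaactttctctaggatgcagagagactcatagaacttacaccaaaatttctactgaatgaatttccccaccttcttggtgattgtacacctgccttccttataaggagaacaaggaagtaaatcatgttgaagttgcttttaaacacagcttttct

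The FN1 window held 1 match to TGACGTCA, from 183 to 176 bases upstream, and 6 matches to GGGCGG, of which several overlap. Among 35116 RefSeq windows of the same length, 1.65% held TGACGTCA and 42.6% held GGGCGG. The ITGB6 window held 0 matches to the 5 motifs, whose shares over all windows were 10.7% for TATAAA, 6.57% for TGANTCA and 11.9% for GGAATG. The windows also differed in composition, with 76.4% G and C bases for FN1 and 30% for ITGB6. A match describes these letters and shows no binding.

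Library totals ran from 13716286 to 32271031 expected counts, which are RSEM's estimates of reads per gene. Levels below are CPM, the counts scaled to a common library size, with TMM, a correction for library composition. DDR1 itself stood at 110 to 210 CPM in the controls, at 343, 427 and 810 CPM in DDR1 replicates 2, 3 and 4, and at 159 CPM in DDR1 replicate 1, so that library's DDR1 level does not set it apart from the controls. The titles of 2 controls name lane 7, those of the other 2 name none, and those of all 4 DDR1 libraries name lane 8. No control is labelled lane 8, so lane and group cannot be told apart from these labels. The epithelial genes KRT5, KRT8 and KRT18 were high, KRT5 at 707 to 4013 CPM, as was the mesenchymal gene VIM at 150 to 1096 CPM. Of the uroplakins of differentiated urothelium, UPK1A and UPK3A stayed under 1 CPM in every library and UPK1B reached 1.89 CPM at most. Between the groups, edgeR's quasi-likelihood test called 0 of 18973 genes (0%) at an adjusted p under 0.05, and 791 (4.17%) had an unadjusted p under 0.05. limma-voom also called 0 and DESeq2 called 15.

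Against that background, 0 of the 9 members were called by edgeR, limma-voom or DESeq2, and 0 of 9 had an unadjusted edgeR p under 0.05. The 2 groups overlapped for each of the 9, while 456 genes (2.4%) did not overlap over the whole table. By the sign of the fitted log2 fold change, 4 members were higher, among them ITGA6 at 0.00, and 5 lower in the DDR1 group, with a median of -0.29, where the median of all tested genes was -0.003. The median of the 8 integrin members was -0.15, and it ran from -0.45 without DDR1 replicate 3 to 0.02 without control replicate 1. For each member, the fold between the highest and lowest library of at least 1 group exceeded the fold between the group means, as the plot of each gene by library shows.

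**Figure D1:**
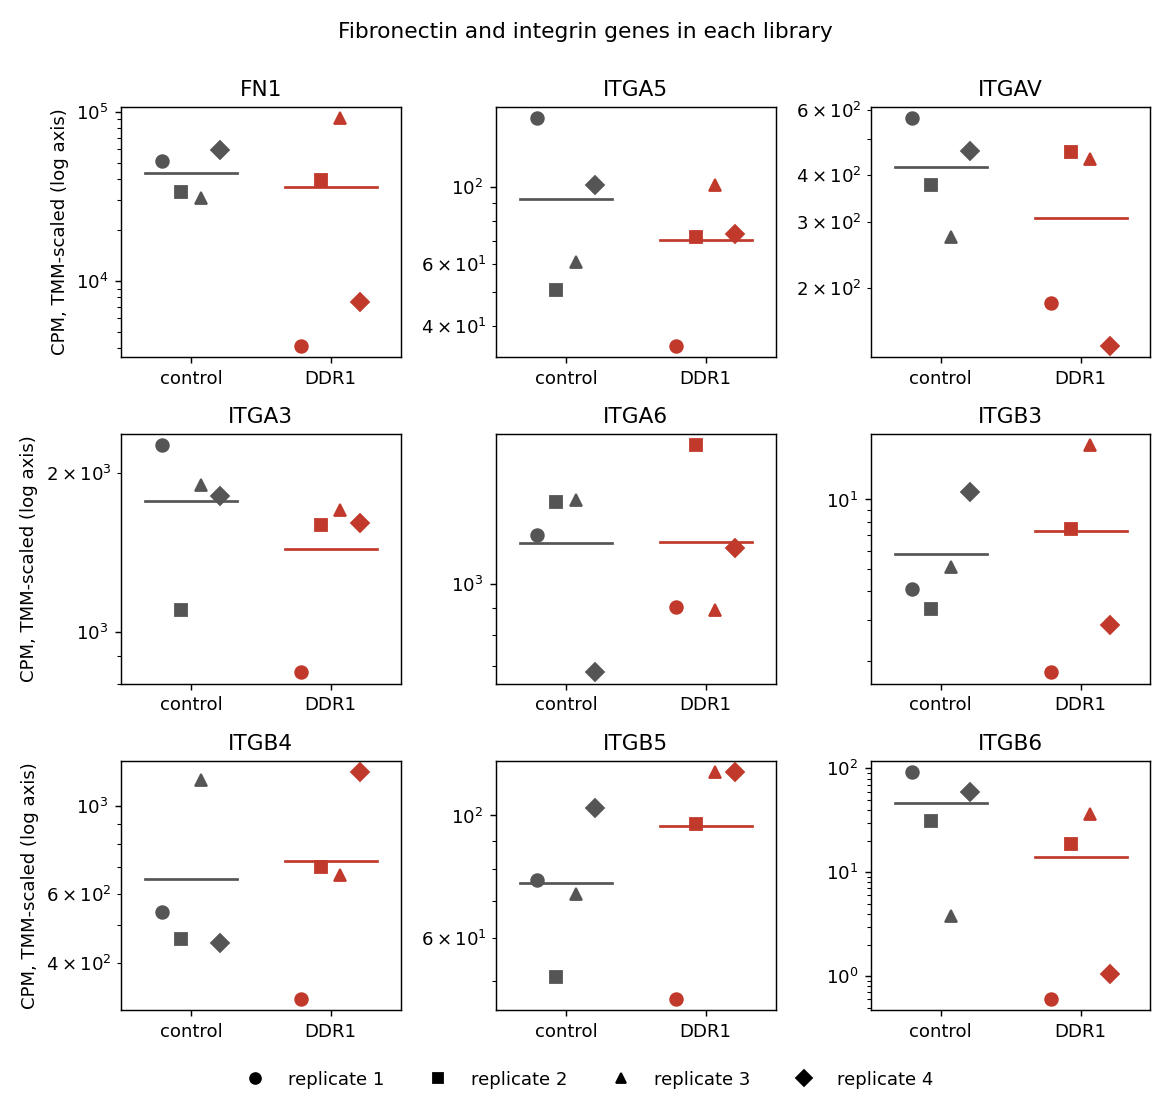
Level of each of the 9 genes in each library, as TMM-scaled CPM on a log axis whose range differs between panels. Grey symbols are controls, red symbols DDR1 libraries, shapes give the replicate, and lines the group means; the groups overlap in every panel, and DDR1 replicates 1 and 4 are the lowest 2 libraries for FN1, ITGAV, ITGB3 and ITGB6.

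FN1, the ligand (ENSG00000115414, GRCh38 chromosome 2, 215360440 to 215436172, minus strand), was among the most abundant transcripts of these tumours. The controls held 50977, 33448, 30841 and 59101 CPM in replicates 1 to 4. The DDR1 libraries held 4133, 39582, 91320 and 7538 CPM. Controls thus stayed within a 1.92-fold range, whereas the highest and lowest DDR1 libraries, replicates 3 and 1, lay 22.1-fold apart and enclosed all the controls. FN1 took 8.5% of all counts in DDR1 replicate 3 and 0.446% in DDR1 replicate 1. It ranked first or second among all genes in 6 libraries, at rank 10 in DDR1 replicate 1 and at rank 8 in DDR1 replicate 4. DDR1 replicates 2, 3 and 4, whose titles begin alike, held the highest level of all and the second lowest.

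Because of that spread, the size of the FN1 difference depended on how the libraries were averaged, and its sign on which libraries were kept. The group means were 43592 ± 13669 CPM for controls and 35643 ± 40407 CPM for DDR1 (SD, n = 4 each), an edgeR log2 fold change of -0.29 (standard error, SE, 0.81). The difference of mean log2 CPM, which gives the 2 low libraries more weight, was -1.2. Without DDR1 replicate 3 the edgeR value was -1.35, and without DDR1 replicate 1 or 4 it was 0.08 or 0.06. On the log2 scale, the FN1 range over the 8 libraries was wider than that of 98.6% of the 10072 tested genes with a mean of at least 10 CPM.

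Among the receptors that bind RGD, ITGA5 encodes the alpha 5 subunit (ENSG00000161638, chromosome 12, 54395261 to 54419460, minus strand). It stood at 157, 50.5, 61 and 101 CPM in the controls and at 35.1, 71.9, 101 and 73.3 CPM in the DDR1 libraries. The highest library was a control and the lowest was DDR1 replicate 1, with the other 6 interleaved. The edgeR log2 fold change of -0.39 (SE 0.40) became 0.01 when control replicate 1 was left out.

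ITGAV encodes alpha V, the shared partner of most RGD-binding beta subunits (ENSG00000138448, chromosome 2, 186590065 to 186680901, plus strand). The controls held 568, 376, 274 and 464 CPM, and the DDR1 libraries 182, 463, 441 and 140 CPM. DDR1 replicates 2 and 3 lay within the control range, while replicates 1 and 4 lay under it. The log2 fold change of -0.46 (SE 0.40) ran from -0.73 to -0.21 when 1 library was left out.

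ITGB6 encodes beta 6, an epithelial partner of alpha V best known for activating latent TGF-beta (ENSG00000115221, chromosome 2, 160099666 to 160200313, minus strand). It was the most variable member. The controls held 92.7, 31.2, 3.83 and 59.9 CPM, and the DDR1 libraries 0.604, 18.9, 36.1 and 1.05 CPM. The 2 lowest libraries, DDR1 replicates 1 and 4, each rested on 21 expected counts, and the next lowest was a control, replicate 3, with 89. The highest library exceeded the lowest 154-fold over all 8 libraries, 24.2-fold among controls alone and 59.9-fold among DDR1 libraries. Means were 46.9 ± 38.2 and 14.2 ± 16.9 CPM (SD, n = 4 each), and edgeR gave a log2 fold change of -1.73 (SE 1.2). It was negative in all 19 alternatives, from -2.77 without DDR1 replicate 3 to -1.15 without control replicate 1 among those that left out 1 library.

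ITGB3 encodes beta 3, the partner of alpha V in the vitronectin receptor and of alpha IIb on platelets (ENSG00000259207, chromosome 17, 47253846 to 47311816, plus strand). It was scarce, at 4.10, 3.34, 5.08 and 10.8 CPM in controls and 1.78, 7.43, 17.2 and 2.85 CPM in DDR1 libraries. As for FN1, DDR1 replicate 3 was the highest of all libraries and DDR1 replicate 1 the lowest. The sign of its log2 fold change was not stable, with 0.33 (SE 0.67) over all libraries, -0.52 without DDR1 replicate 3, and -0.03 with limma-voom. ITGA2B, the platelet partner, stayed under 1 CPM in every library.

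ITGB5 encodes beta 5, a vitronectin receptor subunit of many epithelial and mesenchymal cells (ENSG00000082781, chromosome 3, 124761948 to 124901418, minus strand). The controls held 76.4, 50.9, 71.9 and 103 CPM, and the DDR1 libraries 46.4, 96.4, 120 and 120 CPM. DDR1 replicates 3 and 4 lay above every control, and DDR1 replicate 1 lay under every control. The fitted log2 difference was 0.34 (SE 0.31). Without DDR1 replicate 1 it was 0.57, and ITGB5 was then the 1 member with an unadjusted edgeR p under 0.05. In that setting 927 of all 19472 tested genes had such a p.

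Among the subunits that mainly bind laminins, ITGA3 encodes alpha 3, a partner of beta 1 (ENSG00000005884, chromosome 17, 50055968 to 50090481, plus strand). It stood at 2256, 1104, 1899 and 1810 CPM in controls and at 840, 1596, 1703 and 1606 CPM in DDR1 libraries. DDR1 replicate 1 again held the lowest level, apart from 3 close DDR1 libraries. The fitted log2 difference was -0.30 (SE 0.29), and -0.11 without DDR1 replicate 1.

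ITGA6 encodes alpha 6, which pairs with beta 1 or beta 4 (ENSG00000091409, chromosome 2, 172427354 to 172506282, plus strand). The controls held 1239, 1429, 1444 and 680 CPM, and the DDR1 libraries 906, 1834, 892 and 1171 CPM. Neither group stood above the other, with means of 1198 ± 358 and 1201 ± 441 CPM (SD, n = 4 each) and a fitted log2 difference of 0.00 (SE 0.31). ITGB4 encodes beta 4, whose long cytoplasmic tail binds plectin in hemidesmosomes (ENSG00000132470, chromosome 17, 75721328 to 75757818, plus strand). It stood at 539, 461, 1162 and 449 CPM in controls and at 325, 698, 668 and 1216 CPM in DDR1 libraries. In each group 1 library stood well above the others, control replicate 3 and DDR1 replicate 4. The log2 fold change of 0.15 (SE 0.43) became 0.59 on leaving out control replicate 3, and -0.19 on leaving out DDR1 replicate 4.

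**Figure D2:**
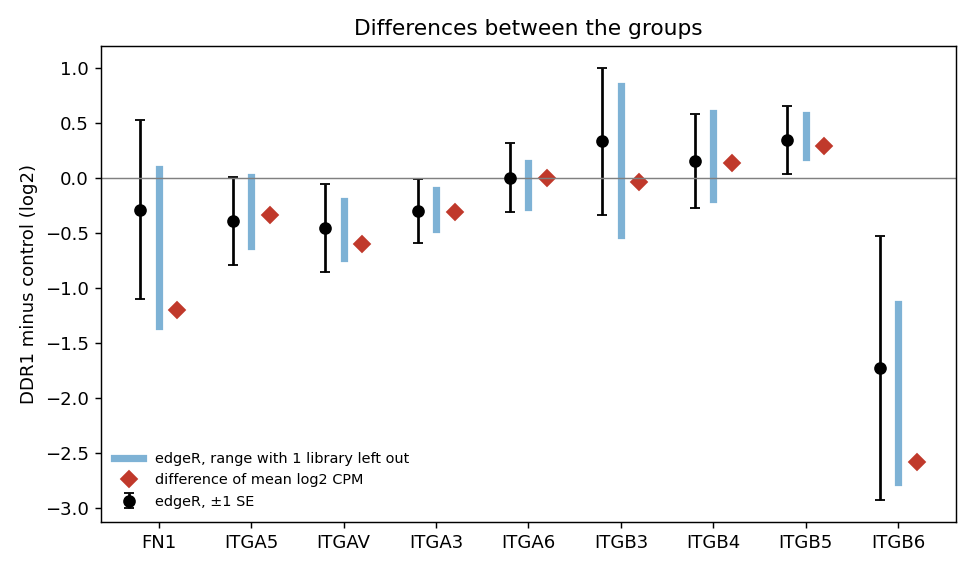
DDR1 minus control on the log2 scale for the 9 genes. Black points are edgeR log2 fold changes with 1 standard error, blue bars their range when each of the 8 libraries is left out in turn, and red diamonds the difference of mean log2 CPM; for FN1 the edgeR value is -0.29 and the difference of mean logs -1.2.

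Levels of different genes were set side by side per length, as CPM per kilobase of the union of each gene's exons. FN1 came first with a mean of 2288 and a range of 239 to 5274, and it exceeded ITGA6 within each of the 8 libraries. ITGA6 (184), ITGA3 (163), the shared partner ITGB1 (106) and ITGB4 (102) followed. Neighbours in that series did not differ beyond their spread: ITGA6 exceeded ITGA3 in 5 of 8 libraries, ITGA3 exceeded ITGB1 in 6, and ITGB1 exceeded ITGB4 in 5. ITGAV (44.3) was under ITGB4 in all 8 libraries, although the ranges over libraries overlapped. ITGB5 (13.3), ITGA5 (10.7), ITGB6 (6.52) and ITGB3 (1.5) came last. ITGB5 exceeded ITGA5 in 7 of 8 libraries and ITGB6 exceeded ITGB3 in 5. Per kilobase of the longest protein-coding transcript, only ITGA6 and ITGA3 exchanged places.

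**Figure D3:**
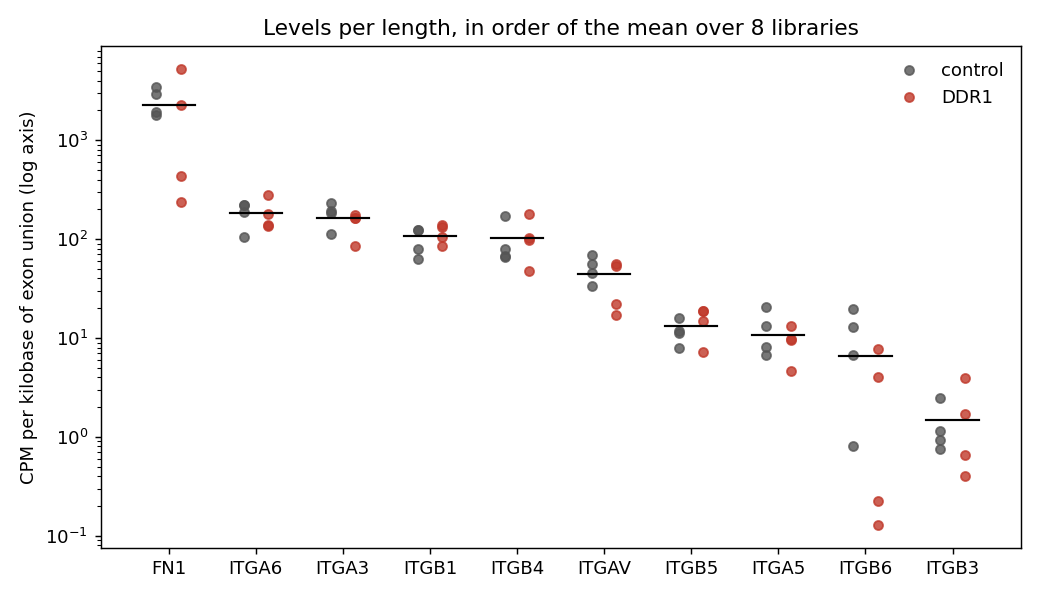
Level per kilobase of exon union for the 9 genes and the shared partner ITGB1, on a log axis, ordered by the mean over 8 libraries (black line). Grey points are controls and red points DDR1 libraries; FN1 runs from 239 to 5274 and ITGB6 from 0.129 to 19.8.

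The beta subunits that pair with alpha V alone among these genes were also compared as shares of their summed level per kilobase, with beta 8 (ITGB8) included to complete the set and beta 1 left out because it has many other partners. ITGB3 pairs with alpha IIb as well, whose gene was near 0 here. ITGB8 made up most of the sum in every library, from 51.4% to 72.1%. ITGB5 ran from 14.4% to 43.7%, and ITGB3 from 1.39% to 4.88%. ITGB6 made up 29.5%, 12.1%, 2.13% and 18.1% in the controls and 0.489%, 6.49%, 9.59% and 0.524% in the DDR1 libraries. It thus ranged from the second most abundant to the least abundant of the 4, and the groups overlapped. These are shares of transcript, not of receptor protein.

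Whether subunits that form 1 receptor vary together was asked over the 8 libraries for 7 pairs taken from textbook knowledge. The pairs are built from members chosen with earlier results of these libraries known. The test sets each pair against no relation, so it cannot show that partners vary together more than other genes do. Of the 7 pairs, 1 passed an exact two-sided permutation test after Benjamini-Hochberg adjustment over the 7. ITGAV and ITGB6 had a Pearson r of 0.95 (exact permutation p = 0.00141, adjusted 0.0099) and a Spearman rho of 0.90 (exact permutation p = 0.00456, adjusted 0.0319) in log2 CPM. Their r was 0.97 among the 4 controls, 0.95 among the 4 DDR1 libraries and 0.94 with group means removed. Without DDR1 replicates 1 and 4, the 2 libraries farthest from the ITGAV median, r was 0.90 over 6 libraries (exact permutation p = 0.0208, adjusted 0.146). With control replicates 1 and 3 also left out it was 0.09 over 4 libraries. Those 4 held ITGAV at only 376 to 464 CPM, and over so narrow a range r cannot show whether the relation holds. With DESeq2 size factors rho was 0.83 (exact permutation p = 0.0154, adjusted 0.108), while r stayed at 0.95.

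The other 6 pairs did not pass. FN1 and its main receptor subunit ITGA5 had r = 0.70 (exact permutation p = 0.0562, adjusted 0.197) and rho = 0.76 (exact permutation p = 0.0368, adjusted 0.129), and r was 0.66 without DDR1 replicates 1 and 4. ITGAV and ITGB3 had r = 0.65 (exact permutation p = 0.086, adjusted 0.201) and rho = 0.62 (exact permutation p = 0.115, adjusted 0.268), and r fell to 0.20 without the same 2 libraries. ITGA6 and ITGB4, the hemidesmosome pair, had r = 0.42 (exact permutation p = 0.298, adjusted 0.521) and rho = 0.48. ITGAV and ITGB5 had r = 0.14, ITGA5 and ITGB1 -0.12, and ITGA3 and ITGB1 -0.20, each with an adjusted exact permutation p of 0.779. Within the groups, r for ITGA5 and ITGB1 was -0.55 in the 4 controls and 0.89 in the 4 DDR1 libraries, and for ITGA3 and ITGB1 -0.76 and 0.85. It was 0.13 and 0.86 for ITGAV and ITGB3, 0.35 and 0.30 for ITGAV and ITGB5, 0.50 and 0.37 for ITGA6 and ITGB4, and 0.82 and 0.83 for FN1 and ITGA5. These differences between the groups were not tested. Without the 2 libraries farthest from the median of the first gene, r was 0.42 for ITGA5 and ITGB1, -0.84 for ITGA3 and ITGB1, 0.38 for ITGAV and ITGB5 and 0.38 for ITGA6 and ITGB4. Outside the 7 pairs and as a description over 8 libraries, FN1 had r = 0.91 with ITGB6, 0.89 with ITGAV and 0.85 with ITGB3, but 0.00 with ITGA6 and 0.05 with ITGB4. The alpha subunit genes ITGA5 and ITGA3, whose products do not pair with each other, had r = 0.88.

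**Figure D4:**
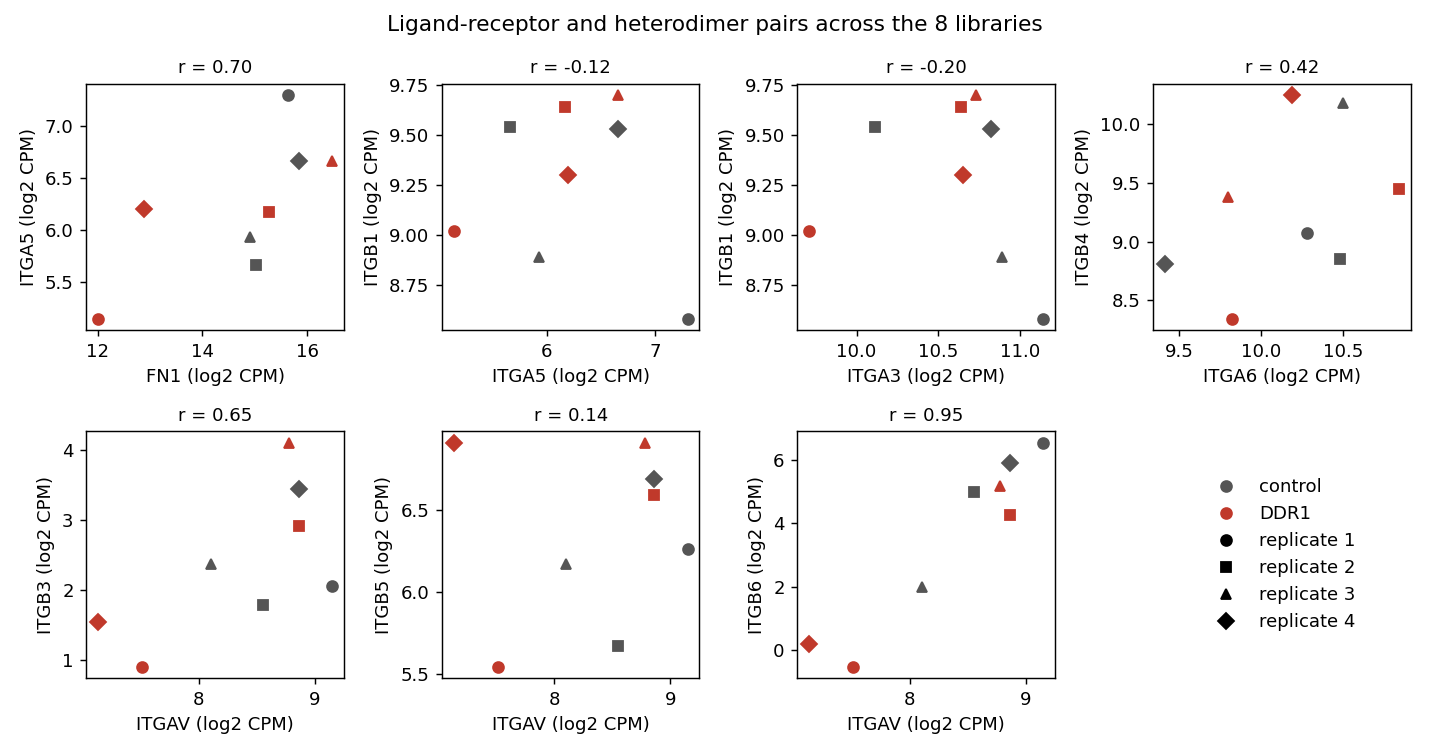
Log2 CPM of the 7 ligand-receptor and heterodimer pairs in the 8 libraries, with Pearson's r above each panel. Grey symbols are controls, red symbols DDR1 libraries and shapes the replicate; ITGAV and ITGB6 lie along a line (r = 0.95) with DDR1 replicates 1 and 4 at its low end, and ITGA3 and ITGB1 do not (r = -0.20).

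Other features of the libraries moved with the low FN1, ITGAV, ITGB3 and ITGB6 levels of DDR1 replicates 1 and 4. The summed level of 23 ribosomal protein genes was highest in these 2 libraries, at 14876 and 15623 CPM, against 11098 and 12199 CPM in DDR1 replicates 3 and 2 and 8587 to 10511 CPM in the controls. In this sum the groups also did not overlap. Fitted by edgeR, all 23 genes were higher with DDR1, 9 of them at an unadjusted p under 0.05 and 0 of them called. Among all 18973 tested genes, 366 were higher at such a p, and 456 (2.4%) did not overlap between the groups. Urothelial and epithelial genes, 14 in the list, also summed highest in DDR1 replicates 1 and 4, at 4913 and 6606 CPM, against 2135 to 4561 CPM elsewhere. The 5 mesenchymal genes summed to 516 and 1316 CPM in these 2 libraries and to 337 to 925 CPM elsewhere. The summed level of 10 fibroblast and pericyte genes was lowest in the same 2, at 15.8 and 14.6 CPM, against 20.1 CPM in control replicate 3 and 55.6 to 121 CPM in the rest. Of those 10 genes, COL1A2, DCN and LUM stayed under 1 CPM in every library. COL1A1 ran from 3.33 to 22.6 CPM, COL3A1 from 0.0287 to 26.8, PDGFRA from 0.172 to 33.1 and THY1, the most abundant by mean log2 CPM, from 0.7 to 55.3 CPM. The part of RNA quality or of other cells in these levels was not tested. In bulk tumour RNA, fewer cells of a type and less RNA per cell cannot be told apart. The counts of these xenografts used the human build GRCh38, and removal of mouse reads was not stated. Transcripts of T24 cells and reads from host cells therefore cannot be told apart in these sums either. Endothelial genes summed to 26.8 to 66 CPM in controls and 36.8 to 163 CPM in DDR1 libraries, with DDR1 replicate 4 highest. KDR, TEK and CLDN5 stayed under 1 CPM throughout, while CDH5 ran from 1.64 to 51.1 CPM and PECAM1 from 4.25 to 21.8 CPM. All 5 tested endothelial genes had positive fold changes, 0 of them at an unadjusted edgeR p under 0.05. So had all 5 tested myeloid and all 4 tested mesenchymal genes, whereas 5 of 6 fibroblast and pericyte genes were lower. Of all 18973 tested genes, 9383 were higher. By mean log2 CPM, EGFL7 was the most abundant endothelial gene (7.27 to 86 CPM). By the same measure CD68 led the myeloid genes (11.9 to 46.3 CPM), MYH11 the muscle genes (11.3 to 25.1 CPM) and GP1BA the platelet genes (1.64 to 3.85 CPM). Summed myeloid genes ran from 21.6 to 150 CPM in controls and 50.3 to 270 CPM in DDR1 libraries, with PTPRC under 1 CPM. Within that list, and named after their values were seen, S100A9 reached 171 CPM and S100A8 75.4 CPM. CD14 reached 5.79 CPM and CSF1R 0.775 CPM at most, so the sum does not stand for the list evenly. Summed muscle genes ran from 24.9 to 77.5 and 20.1 to 50.4 CPM, and platelet genes from 1.98 to 3.22 and 2.24 to 4.05 CPM, with GP9 at 0 counts in every library.

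Genes whose log2 CPM followed each member most closely over the 8 libraries were taken from the 10072 genes with a mean of at least 10 CPM, by Pearson's r, as a description of libraries that share their depth and composition. For FN1 they were the endothelin receptor gene EDNRA (r = 0.995, 10.9 to 74.1 CPM), the metalloprotease gene ADAM19 (0.992, 5.60 to 116 CPM) and the GTPase gene RAB38 (0.982, 3.16 to 26.5 CPM). For ITGB6 they were the neural adhesion gene NEGR1 (0.994, 0.201 to 32.3 CPM), the TEAD cofactor gene VGLL3 (0.991, 1.95 to 22.1 CPM) and the procollagen protease gene ADAMTS3 (0.986, 4.80 to 24.5 CPM). ADAMTS3 was also among those of ITGAV (0.971), after SCPEP1 (0.979) and KIAA1109 (0.975). For ITGB3 they were the lysosomal gene LAMP2 (0.976), FKBP9 (0.967) and the heparan sulphate polymerase gene EXT1 (0.960). ITGA3 was followed by COL7A1, the collagen of anchoring fibrils (0.971, 205 to 990 CPM), PHLDA3 (0.964) and gasdermin E, GSDME (0.959). ITGB4 was followed by the Hippo kinase gene LATS2 (0.976), ACAA1 (0.974) and ALS2CL (0.947). ITGA5 was followed by the pseudogene RPSAP52 (0.975), GLMP (0.968) and DSTYK (0.965), ITGB5 by TMEM44 (0.965), LRP10 (0.961) and PLXNA3 (0.938), and ITGA6 by PDHB (0.920), OXSR1 (0.919) and UBE2E1 (0.901). No member was among the 3 likest genes of another, but ITGB3, with a mean of 6.58 CPM, lay under the minimum level and could not be listed. Each r given here is among the highest over 10072 genes in only 8 libraries, so it is high by selection and was not tested.

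The other genes of fibronectin and integrin biology were counted in 6 lists with 107 genes, of which 91 were tested. edgeR called 0 of the 91, and 3 (3.3%) had an unadjusted p under 0.05, beside 4.17% of all tested genes. Over the whole table limma-voom called 0 genes and DESeq2 called 15, and how many of those 15 lie in these lists is not given here. The 3 genes with an unadjusted edgeR p under 0.05 were all higher in the DDR1 group and were named after their values were seen. They were LGALS3, a galectin that cross-links matrix glycoproteins (29 ± 3.42 CPM against 57.8 ± 10.6 CPM with DDR1), the integrin activator kindlin-2, FERMT2 (34.1 ± 8 and 50.4 ± 9.53), and the adaptor PARVB (13.1 ± 2.26 and 21.8 ± 8.13; SD, n = 4 each). Each had an adjusted edgeR p of 0.9998.

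Of 18 other integrin subunits 10 were tested, 5 higher and 5 lower with a median log2 fold change of 0.00. ITGB1, the partner of alpha 5, alpha V, alpha 3 and alpha 6 (ENSG00000150093, chromosome 10, 32900319 to 33005792, minus strand), held 383, 743, 473 and 737 CPM in controls and 517, 798, 831 and 628 CPM in DDR1 libraries. It ranged 2.17-fold, less than each of the 9 members, and edgeR put the log2 difference at 0.25 (SE 0.26). ITGB8 stood at 525 ± 101 and 505 ± 226 CPM, and ITGA2, the collagen-binding alpha 2 subunit, at 495 ± 272 and 529 ± 415 CPM (SD, n = 4 each).

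Of 16 other RGD-containing or alpha V-binding ligands 12 were tested, 7 higher and 5 lower with a median of 0.13. TNC, tenascin C, ranged from 128 to 1915 CPM, THBS1, thrombospondin 1, from 26 to 3327 CPM, and FBN1, the microfibril protein fibrillin 1, from 64.6 to 370 CPM, with log2 fold changes of -0.01, 0.52 and 0.19. Of 12 laminin chains, the ligands of alpha 3 and alpha 6, 10 were tested, 3 higher and 7 lower with a median of -0.39, and 0 had an unadjusted edgeR p under 0.05. LAMA3, a laminin alpha chain, held 1327 ± 977 CPM in the controls and 843 ± 318 CPM in the other group, and LAMB3, a laminin beta chain, 652 ± 396 and 357 ± 124 CPM (SD, n = 4 each). All 9 hemidesmosome and tetraspanin genes were tested, 6 higher and 3 lower with a median of 0.03; plectin, PLEC, ran from 659 to 4067 CPM, dystonin, DST, from 918 to 1779 and COL17A1 from 621 to 1738 CPM.

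All 12 syndecans and cross-linkers of fibronectin were tested, 7 higher and 5 lower with a median of 0.15. SDC4, a heparan sulphate co-receptor for fibronectin, held 488 ± 169 CPM in the controls and 338 ± 73.9 CPM in the other group, SDC1 369 ± 153 and 300 ± 47.1, and the transglutaminase TGM2 362 ± 127 and 280 ± 190 (SD, n = 4 each). Of 40 activators and adaptors that join integrins to actin 38 were tested, 20 higher and 18 lower with a median of 0.01. The actin cross-linker filamin A, FLNA, had a log2 fold change of -0.29, and vinculin, VCL, -0.12. These medians stand beside -0.003 for all tested genes.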

How the data were processed

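The submitters' processing notes name STAR 2.7.5, RSEM 1.3.1, Trim Galore 0.6.4 and FastQC 0.11.9, with the GRCh38 build. The annotation release, and whether mouse reads were removed, was not stated in any source used here. The authors deposited expected counts per gene, which were rounded to whole numbers for the count tests, and normalized log2 values, which were used as they stand, in 1 alternative. The deposited files of single libraries repeat those log2 values and were not used. Gene identifiers were matched to GENCODE release 29 (58039 of 58302). Other gene models overlap ITGA5, ITGAV, ITGA6, ITGB3, ITGB4, ITGB5 and ITGB1, and without stated strand-specific counting their reads cannot be told apart; the most abundant overlapping model, in ITGA6, averaged 5.72 CPM.

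Genes were filtered by filterByExpr (minimum count 10), scaled by TMM and tested with edgeR's quasi-likelihood test over all 8 libraries (edgeR 4.0.16, limma 3.58.1, DESeq2 1.42.0, R 4.3.3), with Benjamini-Hochberg adjustment over all tested genes and no covariate. Log2 CPM were computed with prior count 2. The members and gene lists were chosen with earlier results of these data known. Named genes are the members, DDR1, ITGB1, the 3 most abundant genes of each pathway list, any called gene of those lists, the 3 likest genes of each member and the most abundant gene of each list of other cells. Some genes that this rule names are not reported here. Replicate numbers follow accession order and pair nothing.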

Additional observations from a re-analysis of the deposited data

Results flagged for a closer look

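Of the 18 sets of 4 libraries examined (9 genes in 2 groups), 1 held a library far from the rest of its group by Dixon's criterion, where chance gives about 1 in 20. ITGA3 stood at 840 CPM in DDR1 replicate 1. On the log2 scale the gap to the nearest DDR1 library was 0.909 of the group's range, above the critical value for 4 values. This is the library labelled DDR1 whose DDR1 level, 159 CPM, lay within the control range.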

How the results depend on the processing

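The count of called genes was 0 in edgeR under all scalings, filters and omissions of libraries, in limma-voom and in limma-trend, and 15 in DESeq2. Members at an unadjusted p under 0.05 numbered 0, and with 1 library left out ran from 0 to 1 (ITGB5, without DDR1 replicate 1). That 1 stands beside 927 of all 19472 genes tested without DDR1 replicate 1. The DDR1 log2 fold change was 1.52 over all libraries, with an unadjusted edgeR p of 0.00612 but an adjusted edgeR p of 0.9998. DDR1 itself was thus not called. Its permutation p over the 70 orderings of the group labels was 0.0571, above 0.05, where 0.0286 was the smallest possible. Without the 2 controls of lane 7 the DDR1 log2 fold change was 1.31, and its unadjusted edgeR p passed the threshold no longer. The count of correlated partner pairs, 1 of 7, was 0 without DDR1 replicates 1 and 4, an omission chosen after seeing the data that leaves 6 libraries. Per kilobase of the longest coding transcript, 2 members changed places. The edgeR fold change of FN1 was -0.29, against -1.2 with limma-voom, which by its construction averages logs. Leaving FN1 out of library sizes, also chosen after seeing the data, moved none of the 8 integrin members beyond the spread between libraries. No paired analysis was possible because the labels give no replicate numbers shared by the groups. Depth limits ITGB6, with 21 expected counts in each of 2 libraries, and ITGB3, with 57 to 426 over all 8.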
